A study of Homo sapiens with 6 samples.

Results

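The amino acid transporters described here are 10 genes, SLC7A5, SLC3A2, SLC7A11, SLC7A1, SLC7A6, SLC1A4, SLC1A5, SLC38A1, SLC38A2 and SLC38A7, taken by symbol from 35052 genes of the RNA-seq libraries and grouped by the substrates they carry. The libraries were made from polyadenylated RNA of EoL-1, a human cell line from an eosinophilic leukaemia, with 3 libraries of ATF3 knockout cells, generated with CRISPR/Cas9 (a knockdown in the series' design text), and 3 of wild type cells. All 6 came from cells grown in medium with fetal bovine serum and added glutamine, with no stimulus named in the labels. ATF3 is a stress-induced transcription factor, and the question was how these transporters differed in the cells in which it had been targeted. The sources used here give neither the position of the edit nor whether the knockout cells were a single clone or a mixed population. Nothing states that replicates were separate cultures, so p-values measure the spread between these libraries, which may be technical.

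Cells import amino acids for protein synthesis, for glutathione and as signals to the kinase complex mTORC1. Several of the plasma membrane importers are heteromeric: a light chain of the SLC7 family carries the substrate, and the heavy chain SLC3A2 (also called CD98hc or 4F2hc), joined to it by a disulfide bond, brings it to the cell surface. Other importers, among them the sodium-coupled SLC38 and SLC1 proteins, work without a heavy chain, and the neutral amino acids they bring in can be exchanged by SLC7A5 for leucine and other large neutral amino acids. Many of these genes are known targets of ATF4, a relative of ATF3 that is translated when amino acids run short.

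The libraries held 26766103 to 30117281 estimated reads. ATF3 (ENSG00000162772.16) had 146, 229 and 132 estimated reads in ATF3 knockout replicates 1, 2 and 3, and 634, 462 and 632 in wild type replicates 1, 2 and 3, a log2 fold change, knockout over wild type, of -1.75 (SE 0.25, edgeR adjusted p = 0.0098), which marks the targeted gene as reduced in mRNA but not absent. In a principal component analysis, the first axis took 42.1% of the variance and separated the groups. On that axis wild type replicate 2 lay nearest to the knockout libraries. On the second axis knockout replicate 3 stood apart at -41.7, beside 13.1 and 14.6 for knockout replicates 1 and 2. The wild type libraries ran from -11.1 to 21.6 there. The labels call the cells eosinophils. Of 12 eosinophil markers listed, CLC, IL5RA, PRG3 and GATA1 had no reads in any library, EPX had 2 reads in 1 knockout library and none elsewhere, and RNASE2, RNASE3 and ADGRE1 were abundant enough to test. The summed level of the 12 was 118 to 184 TMM-scaled CPM, reads corrected for library size in knockout and 37.3 to 52.6 in wild type, that of 8 neutrophil markers 308 to 602 in knockout and 81.1 to 172 in wild type (FCGR3B and ELANE at 0), and that of 6 monocyte and macrophage markers 110 to 176 in knockout and 38.2 to 88.3 in wild type (MARCO at 0). These summed levels moved with the comparison and did not overlap between the groups. Lymphocyte markers summed to 132 to 173 CPM in knockout and 113 to 136 in wild type, with CD3E, CD3D and MS4A1 at 0, while 6 epithelial, endothelial and stromal markers summed to 39.7 to 44.6 CPM in knockout and 20.0 to 24.9 in wild type, with EPCAM at 0. The 6 mast cell and basophil markers summed to 0.27 to 1.38 CPM in knockout and 0.55 to 1.12 in wild type, with CPA3 and HDC at 0, and the 6 erythroid and megakaryocyte markers to 0.93 to 2.00 CPM in knockout and 0.40 to 0.70 in wild type, with HBB, HBA1 and PF4 at 0. The part of these markers in the transporter results was not tested.

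In ATF3 knockout cells 8 of the 10 transporter mRNAs fell and 2 rose. The falls took in both chains of the main leucine exchanger, the cystine importer, the arginine importer SLC7A1, and the small neutral and glutamine importers at the cell surface. SLC7A6, an exchanger of arginine for neutral amino acids, and SLC38A7, a glutamine and asparagine transporter of the lysosome, rose. All 10 genes passed the low-count filter and an adjusted p of 0.05 in edgeR's quasi-likelihood test across 13131 genes, with adjusted p from 0.00731 to 0.0250. Of all genes tested 21.1% were called, 11.4% as higher and 9.72% as lower in knockout, and among 2150 genes with a mean of 100 CPM or more, where 9 of the 10 transporters lie, 29.3% were called. The median log2 fold change of the 10 was -0.68, beside 0.0054 for all genes tested. The 10, like the lists below, were chosen with earlier results of these data known. Their contrast with all genes is therefore a description and not a test. The knockout and wild type values did not overlap for any of the 10, as for 43.5% of all genes tested (22.2% with knockout above and 21.4% with knockout below). In 10 of 10 wild type replicate 2 lay nearest to the knockout mean. That library was also nearest to knockout on the first principal axis of all genes tested. The share of all genes with replicate 2 nearest was not counted, so this is not a trait particular to the transporters. In bulk RNA, fewer cells that express a gene and less of its RNA per cell cannot be told apart.

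The number of calls differed with the library left out and with the tool. Without wild type replicate 1, edgeR called 0 of 13385 genes, so none of the 10 transporters, with a smallest adjusted p of 0.0503; 3496 genes, the 10 transporters among them, had an unadjusted p under 0.05 in that fit. DESeq2 on the same 5 libraries, an alternative added after the data were seen, called 2036 genes (15.2%, with 8.02% higher and 7.19% lower) and all 10 transporters, 8 lower and 2 higher. Without wild type replicate 3 edgeR called 358 genes and 5 transporters (SLC7A5, SLC3A2, SLC7A11, SLC7A1 and SLC1A5), and without knockout replicate 1 or knockout replicate 2 it called 8, all but SLC7A6 and SLC38A7. In all 6 fits that left out a library, each of the 10 kept the sign of its change. With groups that do not overlap, leaving out 1 library could hardly reverse a sign, so this adds no support.

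**Figure D1:**
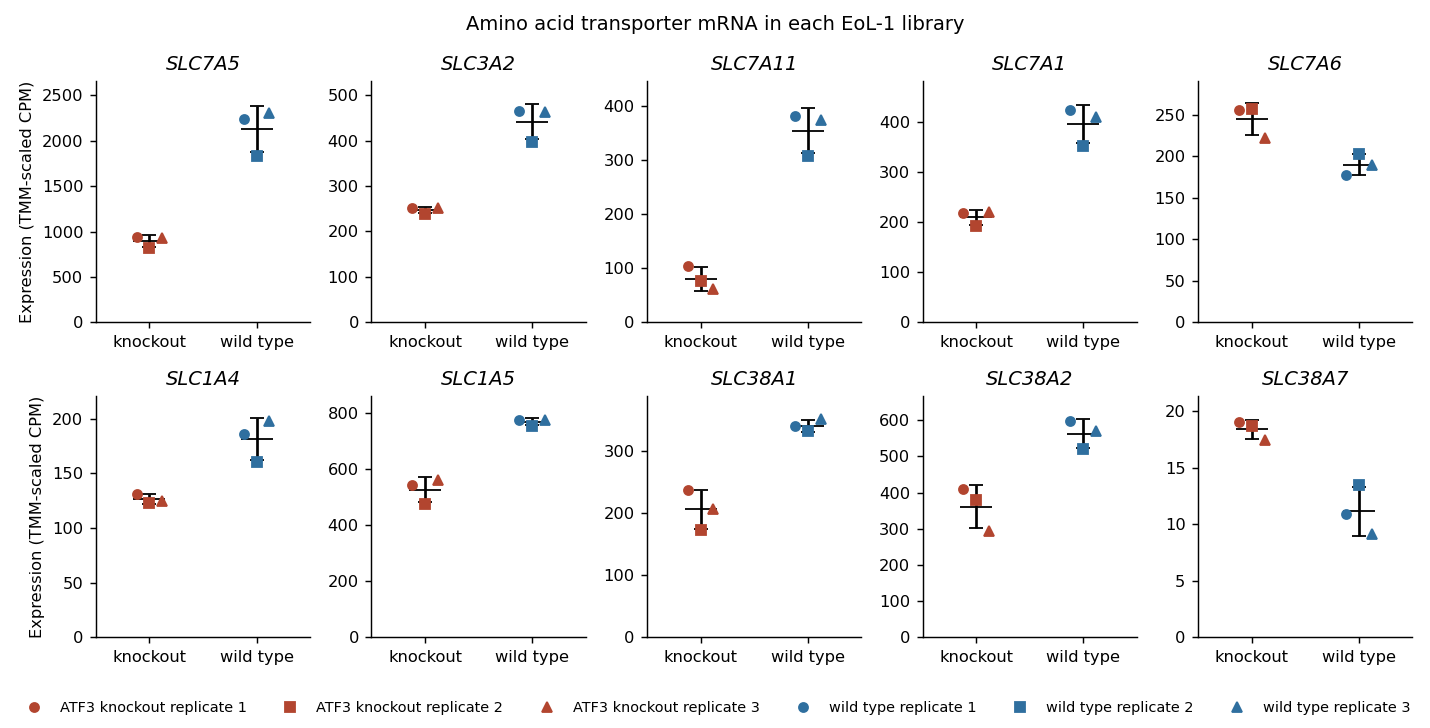
Expression of the 10 transporter mRNAs in TMM-scaled CPM (vertical axes, from 0) in the 3 ATF3 knockout libraries (red, left) and the 3 wild type libraries (blue, right), with a marker for each replicate and bars for the mean ± SD. The knockout values lie below all wild type values for 8 genes and above them for SLC7A6 and SLC38A7, and the wild type replicate 2 (square) is the wild type value nearest to the knockout mean in all 10 panels.

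**Figure D2:**
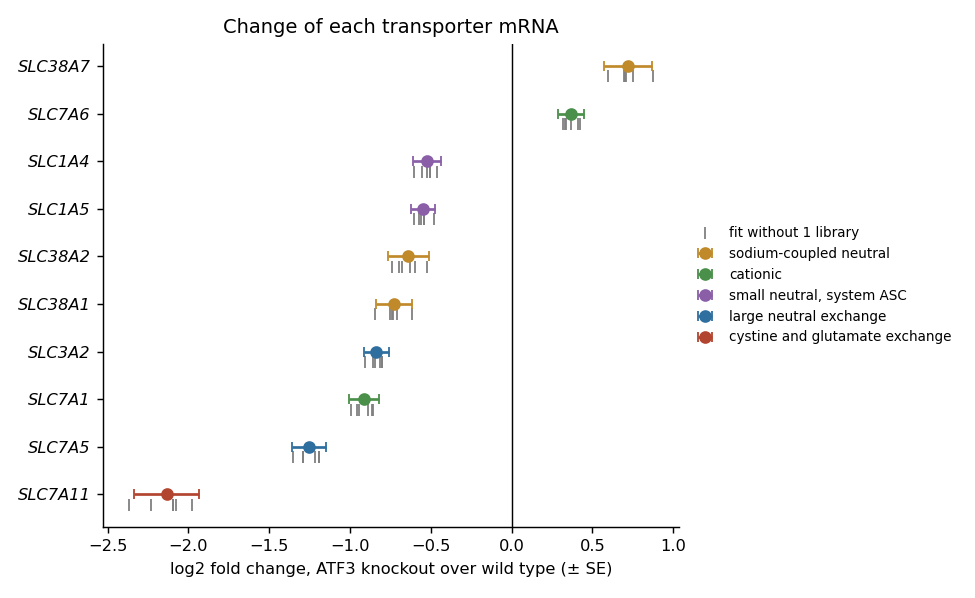
The log2 fold change of each transporter mRNA, ATF3 knockout over wild type, with its standard error (points and bars, coloured by substrate class) and the values of the 6 fits that each leave out 1 library (grey ticks). The changes run between -2.13 for SLC7A11 and 0.72 for SLC38A7, and no grey tick crosses 0. With groups that do not overlap, leaving out 1 library could hardly move a tick across 0.

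SLC7A5 (also called LAT1), the light chain that exchanges glutamine for leucine, isoleucine, valine, phenylalanine, tyrosine, tryptophan, methionine and histidine, was the most abundant of the 10 by read count. The gene (ENSG00000103257.8, chromosome 16, 87830023 to 87869488, minus strand, GRCh38) had 939, 815 and 925 CPM in knockout replicates 1, 2 and 3, and 2237, 1836 and 2308 CPM in wild type replicates 1, 2 and 3. The highest knockout library stood at about the same level as the other knockout libraries and well under the lowest wild type library, replicate 2. SLC7A5 mRNA fell 2.38-fold, a log2 fold change of -1.25 (SE 0.10, edgeR adjusted p = 0.00731), and -1.22 with an adjusted p of 0.0503 in the fit without wild type replicate 1. The 250 bases before the start of its RefSeq transcript are shown because the annotated start beside it, at 87869488, carried 98.8% of the gene's reads. The sequence (chr16:87869508-87869757, minus strand, 5′ to 3′, from RefSeq on GRCh38.p14) holds the palindrome CACGTG, the core of the E-box and of the CLEAR element, in capitals, which begins 130 bases before the start.
SLC7A5 start: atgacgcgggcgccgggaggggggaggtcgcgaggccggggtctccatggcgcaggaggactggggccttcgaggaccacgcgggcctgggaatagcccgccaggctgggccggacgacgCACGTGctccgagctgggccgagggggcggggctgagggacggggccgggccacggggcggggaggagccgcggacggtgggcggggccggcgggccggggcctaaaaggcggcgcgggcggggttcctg

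A second SLC7A5 transcript, ENST00000565644.5, whose 5′ end lies at 87863639, had 0, 121 and 1830 reads in knockout replicates 1, 2 and 3 and 0 in all 3 wild type libraries. Almost all of these reads were in a single knockout library. The main start alone had 935, 807 and 860 CPM in knockout and 2229, 1828 and 2296 CPM in wild type without overlap.

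SLC3A2 (ENSG00000168003.16, chromosome 11, 62856102 to 62888875, plus strand), the heavy chain shared by SLC7A5, SLC7A6 and SLC7A11, had 251, 238.5 and 252 CPM in knockout replicates 1, 2 and 3, and 465, 397 and 462 CPM in wild type replicates 1, 2 and 3. The knockout libraries lay close together, below all wild type libraries. SLC3A2 mRNA fell 1.79-fold, with a log2 fold change of -0.84 (SE 0.077, edgeR adjusted p = 0.00787; 0.0503 without wild type replicate 1). Per length, in TPM, which corrects for length and library size, the light chain SLC7A5 stood at 1.25 ± 0.044 times the level of SLC3A2 in knockout and 1.70 ± 0.080 times in wild type (SD, n = 3 each). The log2 ratio was lower by 0.44 in knockout without overlap, with p = 0.1 in an exact two-sided permutation test, the smallest that 3 against 3 libraries allow, and 0.14 after Benjamini-Hochberg adjustment over 7 ratios.

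SLC7A11 (also called xCT), the light chain that imports cystine in exchange for glutamate and so feeds glutathione synthesis, changed most among the 10. It (ENSG00000151012.13, chromosome 4, 138164097 to 138242349, minus strand) had 105, 76.6 and 61.3 CPM in knockout replicates 1, 2 and 3, and 383, 307 and 375 CPM in wild type replicates 1, 2 and 3. The wild type values were far above the knockout values, and the knockout libraries were more widely spread in proportion than the wild type libraries. SLC7A11 mRNA fell 4.38-fold, with a log2 fold change of -2.13 (SE 0.20, edgeR adjusted p = 0.00787; 0.0503 without wild type replicate 1). Against its heavy chain SLC3A2 its TPM ratio was 0.0513 ± 0.0140 in knockout and 0.127 ± 0.00611 in wild type (SD, n = 3 each; log2 difference -1.35, exact permutation p = 0.1, adjusted 0.14). The annotation places an antisense gene, SLC7A11-AS1, over 865 of its exon bases, and that gene was not analysed here.

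SLC7A6 (also called y+LAT2), the third light chain measured, exports arginine in exchange for glutamine or leucine and sodium. Its mRNA (ENSG00000103064.14, chromosome 16, 68264516 to 68301823, plus strand) was at 256, 257 and 223 CPM in knockout replicates 1, 2 and 3, and at 177.5, 203 and 190 CPM in wild type replicates 1, 2 and 3. The lowest knockout library, replicate 3, was above the highest wild type library, replicate 2, by a small margin. SLC7A6 mRNA rose 1.29-fold, with a log2 fold change of 0.37 (SE 0.083, edgeR adjusted p = 0.0250). That call was lost without knockout replicate 1 (adjusted p = 0.0763), knockout replicate 2 (0.0644), wild type replicate 1 (0.108) or wild type replicate 3 (0.0941). SLC7A6 shares 3371 exon bases with SLC7A6OS on the opposite strand, and whether the counting used the strand is not given in the sources used here, so reads may have been divided wrongly between these genes. Over the 6 libraries SLC7A6OS held 3411 reads and SLC7A6 36140, and SLC7A6OS had 20.8 ± 2.71 CPM in knockout and 20.2 ± 0.74 CPM in wild type (SD, n = 3 each; edgeR adjusted p = 0.796).

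The mix of the 3 light chain mRNAs among the 10 differed between the groups. SLC7A7, a further light chain of SLC3A2 outside the 10, is not in this mix. It had 9.56 ± 0.64 CPM in knockout and 8.90 ± 0.67 CPM in wild type (SD, n = 3 each), which overlapped (log2 fold change 0.10, edgeR adjusted p = 0.585). Its mean TPM was 5.62 in knockout and 5.46 in wild type. The larger move was in SLC7A5, with a mean of 189 TPM in knockout and 432 in wild type. SLC7A6 had 77.7 and 56.9 TPM. In TPM, SLC7A6 made up 27.7, 31.1 and 26.3% of the 3 light chains in knockout replicates 1, 2 and 3, and 10.9, 13.0 and 9.14% in wild type replicates 1, 2 and 3. The share of SLC7A5 was 66.1 to 71.6% in knockout and 80.9 to 84.7% in wild type, and that of SLC7A11 was 2.12 to 3.43% in knockout and 6.02 to 6.44% in wild type. None of these shares overlapped between the groups, but as parts of the same whole they are not separate results. The summed level of these 3 light chains was 290, 269 and 263 TPM in knockout and 552, 461 and 551 TPM in wild type. That sum divided by SLC3A2 was 1.89, 1.84 and 1.74 in knockout and 2.06, 2.00 and 2.10 in wild type. The SLC7A6 to SLC3A2 ratio was 0.517 ± 0.057 in knockout and 0.226 ± 0.034 in wild type (SD, n = 3 each; log2 difference 1.20, exact permutation p = 0.1, adjusted 0.14). These are mRNA levels, and the assembled transporters were not measured.

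**Figure D3:**
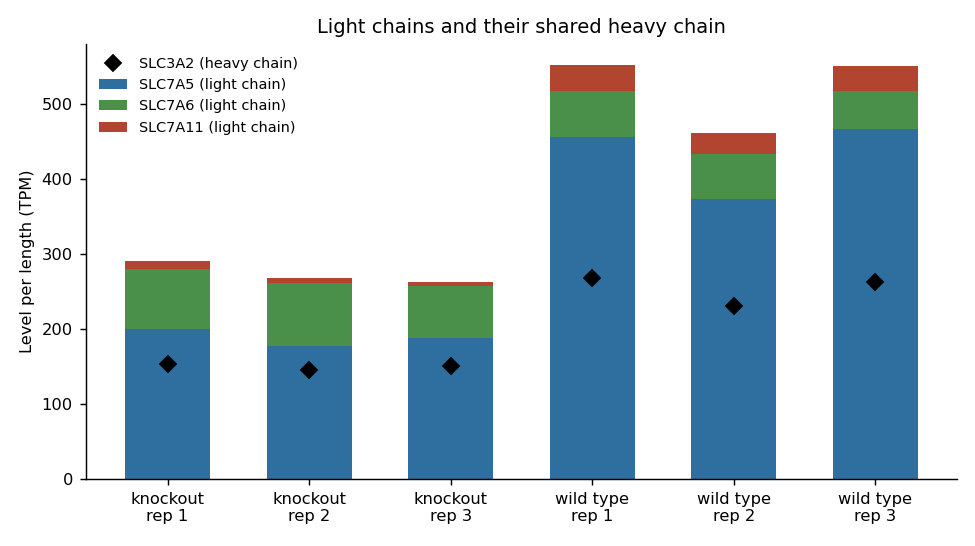
Stacked bars give the TPM of the light chains SLC7A5, SLC7A6 and SLC7A11 and black diamonds the TPM of the heavy chain SLC3A2 in each library, ATF3 knockout at the left and wild type at the right. The bars reach 263 to 290 TPM in knockout and 461 to 552 TPM in wild type, while the green SLC7A6 segment is taller in the knockout libraries.

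SLC7A1 (also called CAT1), a uniporter of arginine, lysine and ornithine that needs no heavy chain, fell while SLC7A6 rose. The gene (ENSG00000139514.12, chromosome 13, 29509410 to 29595688, minus strand) had 218, 192.5 and 220 CPM in knockout replicates 1, 2 and 3, and 425, 352 and 411 CPM in wild type replicates 1, 2 and 3. Every knockout library was far below every wild type library. SLC7A1 mRNA fell 1.89-fold, with a log2 fold change of -0.91 (SE 0.093, edgeR adjusted p = 0.00787; 0.0503 without wild type replicate 1). The TPM of SLC7A1 was 0.340 ± 0.044 times that of SLC7A6 in knockout and 0.847 ± 0.135 times in wild type (SD, n = 3 each; log2 difference -1.31, exact permutation p = 0.1, adjusted 0.14). The summed TPM of these 2 cationic carriers nevertheless overlapped between the groups, at 108, 108 and 95.7 in knockout and 113, 102 and 99.4 in wild type.

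The 2 exchangers of system ASC both fell, and by similar amounts. SLC1A5 (also called ASCT2; ENSG00000105281.12, chromosome 19, 46774883 to 46788594, minus strand), a sodium-dependent exchanger of glutamine and other small neutral amino acids, had 545, 476 and 561 CPM in knockout replicates 1, 2 and 3, and 778, 755 and 777 CPM in wild type replicates 1, 2 and 3. The wild type libraries were nearly equal, and the knockout libraries all lay below them. SLC1A5 mRNA fell 1.46-fold, with a log2 fold change of -0.55 (SE 0.074, edgeR adjusted p = 0.00914; 0.0524 without wild type replicate 1). SLC1A4 (also called ASCT1; ENSG00000115902.10, chromosome 2, 64988477 to 65023865, plus strand), which exchanges alanine, serine and cysteine, had 132, 123 and 125 CPM in knockout replicates 1, 2 and 3, and 186.5, 161 and 198 CPM in wild type replicates 1, 2 and 3. The wild type library nearest to knockout was again replicate 2. SLC1A4 mRNA fell 1.44-fold, with a log2 fold change of -0.52 (SE 0.087, edgeR adjusted p = 0.0122; 0.0649 without wild type replicate 1 and 0.0540 without wild type replicate 3). Per length SLC1A4 stood at 0.134 ± 0.0057 of SLC1A5 in knockout and 0.131 ± 0.018 in wild type (SD, n = 3 each), values that overlapped, with an exact permutation p of 0.8.

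The sodium-coupled neutral transporters SLC38A1 and SLC38A2 of the plasma membrane fell, and the lysosomal SLC38A7 rose. SLC38A1 (also called SNAT1; ENSG00000111371.15, chromosome 12, 46183063 to 46270017, minus strand), which concentrates glutamine and alanine in the cell, had 237, 173 and 206.5 CPM in knockout replicates 1, 2 and 3, and 339, 331 and 350 CPM in wild type replicates 1, 2 and 3. The knockout libraries were spread and the wild type libraries close together, with a wide gap between the groups. Its mRNA fell 1.66-fold, with a log2 fold change of -0.73 (SE 0.11, edgeR adjusted p = 0.0109; 0.0573 without wild type replicate 1 and 0.0520 without wild type replicate 3).

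SLC38A2 (also called SNAT2; ENSG00000134294.13, chromosome 12, 46358189 to 46372867, minus strand), a carrier of alanine, proline and glutamine known to be induced when amino acids are scarce, had 410, 379 and 295 CPM in knockout replicates 1, 2 and 3, and 598, 520 and 572 CPM in wild type replicates 1, 2 and 3. Knockout replicate 3 was the lowest library. SLC38A2 mRNA fell 1.56-fold, with a log2 fold change of -0.64 (SE 0.13, edgeR adjusted p = 0.0181; 0.0819 without wild type replicate 1 and 0.0699 without wild type replicate 3). The TPM ratio of SLC38A1 to SLC38A2 was 0.251 ± 0.065 in knockout and 0.245 ± 0.020 in wild type (SD, n = 3 each), which overlapped (exact permutation p = 1).

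SLC38A7 (also called SNAT7; ENSG00000103042.8, chromosome 16, 58665109 to 58685104, minus strand), which exports glutamine and asparagine out of lysosomes, was the least abundant of the 10 and had 251 reads in its poorest library. It stood at 19.1, 18.7 and 17.4 CPM in knockout replicates 1, 2 and 3, and at 10.9, 13.5 and 9.15 CPM in wild type replicates 1, 2 and 3. The knockout libraries were nearly equal and above all wild type libraries, of which replicate 2 was highest. SLC38A7 mRNA rose 1.65-fold, with a log2 fold change of 0.72 (SE 0.15, edgeR adjusted p = 0.0200). The call was lost without knockout replicate 1 (adjusted p = 0.0609), knockout replicate 2 (0.0525), wild type replicate 1 (0.0899) or wild type replicate 3 (0.0642). Its TPM was 0.0398 ± 0.0089 times that of SLC38A2 in knockout and 0.0138 ± 0.0038 times in wild type (SD, n = 3 each; log2 difference 1.54, exact permutation p = 0.1, adjusted 0.14).

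Summed over the 10 genes, the transporter mRNAs came to 1014, 949 and 846 TPM in knockout replicates 1, 2 and 3, and to 1649, 1432 and 1571 TPM in wild type replicates 1, 2 and 3. In knockout the order of levels per length was SLC1A5 (257 ± 23.2 TPM), SLC7A5 (189 ± 11.2), SLC38A2 (152 ± 41.9), SLC3A2 (150 ± 3.79), SLC7A6 (77.7 ± 7.55), SLC38A1 (36.6 ± 5.46), SLC1A4 (34.4 ± 3.4), SLC7A1 (26.2 ± 1.38), SLC7A11 (7.71 ± 2.19) and SLC38A7 (5.81 ± 0.55), each as mean ± SD of 3 libraries. Neighbours whose libraries overlapped there were SLC7A5 and SLC38A2, SLC38A2 and SLC3A2, SLC38A1 and SLC1A4, and SLC7A11 and SLC38A7. In wild type the order was SLC7A5 (432 ± 51.4 TPM), SLC1A5 (372 ± 32.9), SLC3A2 (254 ± 20.5), SLC38A2 (244 ± 12.1), SLC38A1 (59.7 ± 2.32), SLC7A6 (56.9 ± 5.69), SLC1A4 (48.6 ± 4.91), SLC7A1 (47.8 ± 5.03), SLC7A11 (32.3 ± 4.09) and SLC38A7 (3.34 ± 0.76). There SLC7A5 overlapped with SLC1A5, SLC3A2 with SLC38A2, and each neighbour from SLC38A1 to SLC7A1 with the next.

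Several of these genes have transcripts with different annotated 5′ ends, called starts here, which were not tested as promoters. The reads were summed over groups of these transcripts, in a fit added after the data were seen. Neighbouring 5′ ends went into the same group where they lay within 500 bases of each other, so a group can span more than that. Of 28106 such starts 4.08% were called by edgeR, 2.04% as higher and 2.05% as lower in knockout. Of the main starts, those of SLC7A5, SLC3A2, SLC7A11, SLC7A1, SLC1A4, SLC1A5, SLC38A1 and SLC38A2 fell, with adjusted p from 0.0267 to 0.0486, and those of SLC7A6 (log2 fold change 0.36, adjusted p = 0.0825) and SLC38A7 (0.71, adjusted p = 0.0683) did not pass. At the level of single transcripts, in a fit also added after the data were seen, edgeR called 0 of 50394, with 7899 at an unadjusted p under 0.05, and so none of 56 transporter transcripts tested, 24 of which had an unadjusted p under 0.05. Minor starts with over 3% of their gene's reads were found in SLC3A2 and SLC1A5, described next, and in SLC1A4 and SLC38A2. Below that share, a start of SLC7A5 at 87836805 (0.42% of its reads) fell, with a log2 fold change of -1.58 (edgeR adjusted p = 0.0437). Its only transcript is annotated as a retained intron. The upstream start of SLC1A4 (64988477 to 64988490, 8.18% of its reads) had 13.3, 9.98 and 7.25 CPM in knockout replicates 1, 2 and 3, and 15.0, 13.2 and 17.2 CPM in wild type replicates 1, 2 and 3 (log2 fold change -0.58, edgeR adjusted p = 0.227), with overlap by a single knockout library. In SLC38A2 the starts at 46364553 to 46365307 (5.47% of its reads) did not pass (log2 fold change -0.86, edgeR adjusted p = 0.130). Nor did those at 46362542 to 46362904 (3.14%, log2 fold change -0.65, edgeR adjusted p = 0.106). Neither overlapped between the groups. The transcripts at 46362542 to 46362904 are all annotated as retained introns. Those at 46364553 to 46365307 include retained introns beside a protein-coding transcript.

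SLC3A2 has an upstream start (5′ ends at 62856102 to 62856168, 4 transcripts, 11.9% of the gene's reads) and a main start (62880422 to 62880896, 4 transcripts, 82.2% of the reads). The upstream start had 36.1, 41.0 and 38.0 CPM in knockout replicates 1, 2 and 3, and 42.4, 40.1 and 47.5 CPM in wild type replicates 1, 2 and 3, which overlapped (log2 fold change -0.18, SE 0.093, edgeR adjusted p = 0.309). The main start had 199, 184 and 194 CPM in knockout and 395, 335 and 390 CPM in wild type, without overlap (log2 fold change -0.96, SE 0.081, edgeR adjusted p = 0.0267). Upstream reads amounted to 18.1, 22.2 and 19.6% of main-start reads in knockout, against 10.7, 12 and 12.2% in wild type. The log2 difference of this ratio was 0.78, with an exact permutation p of 0.1 and 0.2 after adjustment over 8 such ratios in SLC3A2 and SLC1A5. The share of SLC3A2 reads in its main transcript, ENST00000338663.11, was 77.0 to 79.3% in knockout and 84.3 to 85.0% in wild type. The exact permutation p was 0.1, and 0.43 after adjustment over 10 such shares. The other 5 SLC3A2 starts with reads held 0.17 to 3.09% of them each, and none passed (log2 fold changes -1.03 to -0.23, edgeR adjusted p from 0.198 to 0.760). From 62882775 onward, the transcripts with reads are all annotated as retained introns.

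In SLC1A5 the larger fold change was at a minor start inside the gene. The internal start (46784786 to 46784905, 4 transcripts, 7.42% of reads) had 33.2, 27.9 and 27.7 CPM in knockout replicates 1, 2 and 3, and 68.6, 65.3 and 66.4 CPM in wild type replicates 1, 2 and 3 (log2 fold change -1.18, SE 0.088, edgeR adjusted p = 0.0267). The main start (46788594, 87.6% of reads) had 498, 420 and 480 CPM in knockout and 691, 649 and 676 CPM in wild type (log2 fold change -0.54, SE 0.077, edgeR adjusted p = 0.0339). Both starts separated the groups without overlap. Internal reads were 6.66, 6.65 and 5.77% of main-start reads in knockout, against 9.92, 10.1 and 9.83% in wild type, a log2 difference of -0.65 (exact permutation p = 0.1, adjusted 0.2). A start at 46787342 between them had 14.2, 28.0 and 53.2 CPM in knockout and 18.5, 40.6 and 35.3 CPM in wild type, which overlapped widely. Transcripts of these starts share most of their exons, so how Salmon divided reads between them bears on these values.

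**Figure D4:**
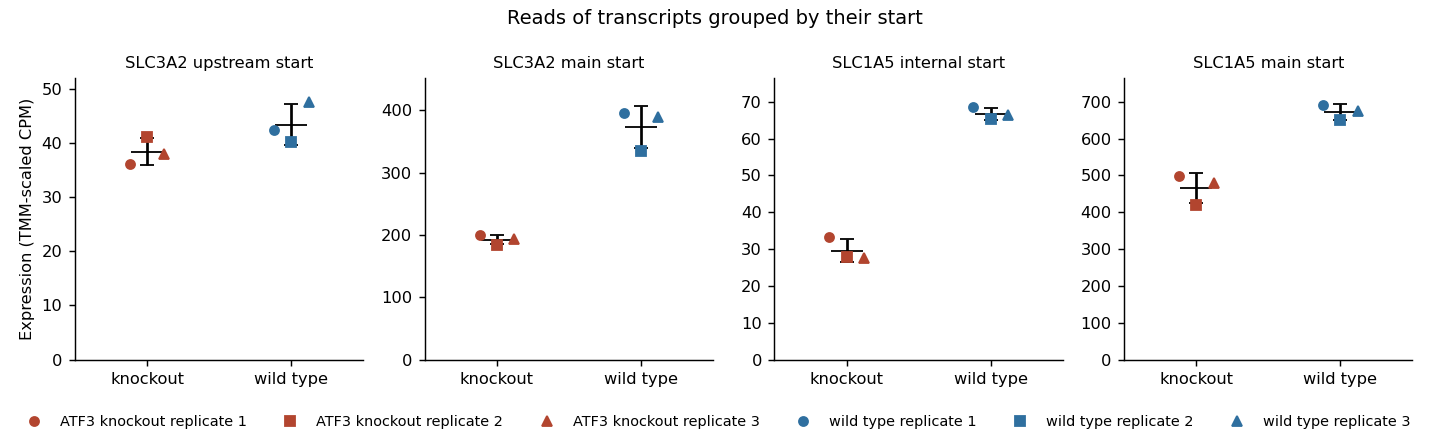
Reads in TMM-scaled CPM, from 0, of the transcripts that share a start, for the upstream and main starts of SLC3A2 and the internal and main starts of SLC1A5, in ATF3 knockout (red, left) and wild type (blue, right) libraries, with bars for mean ± SD. The groups overlap for the upstream start of SLC3A2 (36.1 to 41.0 in knockout and 40.1 to 47.5 in wild type) and are apart for the other starts.

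The sequences before these starts are shown so that the starts of each gene can be set side by side. They were taken from RefSeq on GRCh38.p14 and run 5′ to 3′ on the strand of the gene: SLC3A2 upstream (chr11:62855859-62856108, plus), SLC3A2 main (chr11:62880646-62880895, plus), SLC1A5 main (chr19:46788595-46788844, minus) and SLC1A5 internal (chr19:46784896-46785064, minus, cut short 10 bases into the exon that begins at 46784905). The SLC3A2 main sequence holds 24 exon bases of the gene at its end. In the SLC3A2 upstream sequence 63 bases are annotated as exon of SLC3A2 or SNHG1, 7 of them of SLC3A2. All 250 bases of the SLC1A5 main sequence lie in exons of another gene, AC008622.2. Capitals mark a match to TGATGNAA, the composite element bound by C/EBP and ATF factors.
SLC3A2 upstream start: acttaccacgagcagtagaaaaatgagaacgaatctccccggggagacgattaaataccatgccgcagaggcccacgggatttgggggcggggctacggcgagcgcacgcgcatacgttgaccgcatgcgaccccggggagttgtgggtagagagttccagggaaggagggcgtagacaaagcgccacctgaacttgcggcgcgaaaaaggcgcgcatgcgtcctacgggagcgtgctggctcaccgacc
SLC3A2 main start: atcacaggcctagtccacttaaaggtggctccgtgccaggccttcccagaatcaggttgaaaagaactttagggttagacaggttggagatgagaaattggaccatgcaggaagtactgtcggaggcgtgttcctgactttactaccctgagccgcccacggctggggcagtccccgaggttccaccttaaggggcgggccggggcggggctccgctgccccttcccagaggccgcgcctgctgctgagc
SLC1A5 main start: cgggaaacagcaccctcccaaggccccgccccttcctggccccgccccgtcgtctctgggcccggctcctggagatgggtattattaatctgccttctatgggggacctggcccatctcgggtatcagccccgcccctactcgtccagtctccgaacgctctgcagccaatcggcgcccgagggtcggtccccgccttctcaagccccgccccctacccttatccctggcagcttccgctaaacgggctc
SLC1A5 internal start: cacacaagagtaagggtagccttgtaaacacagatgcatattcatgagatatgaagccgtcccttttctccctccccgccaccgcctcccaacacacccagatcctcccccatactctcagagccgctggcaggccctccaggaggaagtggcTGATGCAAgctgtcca

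Of the 4 sequences, that of the SLC1A5 internal start holds the element, as TGATGCAA beginning at 46784911, 97 bases before the RefSeq start at 46784814. Its last bases overlap the first bases of ENST00000594991.5, which the annotation begins at 46784905. That transcript held most reads of the start group, with 27.6, 18.9 and 24.0 CPM in knockout and 53.1, 50.3 and 55.1 in wild type. For it the element lies across the 5′ end and not 97 bases upstream. Windows of 250 bases before 35116 RefSeq starts were searched on both strands, 16 of them for 9 of the 10 transporters, the gene without a window being SLC7A11. TGATGNAA was in 3.14% of all windows and in 1 of the 16. The cyclic AMP response element TGACGTCA was in 1.65% of all windows and in 0 of the 16. The AP-1 site TGANTCA was in 6.57% and in 2 (SLC3A2 and SLC38A1), and CACGTG in 6.34% and in 2 (SLC7A5 and SLC1A5). Except in SLC7A5, these sites were not before the main start. They preceded RefSeq starts at 62881699 (SLC3A2), 46266516 (SLC38A1) and 46787293 (SLC1A5). The SLC1A5 window before 46787293 holds 193 exon bases of the gene itself. The SLC38A7 windows lie wholly in exons of SLC38A7, so the 16 windows are not all sequence upstream of transcription.

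Genes most like SLC7A5 across the 6 libraries were found by Pearson's r of log2 CPM among protein-coding genes, as a description over 6 points that share their group difference. The nearest were ATF5 (r = 1.000), a transcription factor of the amino acid and mitochondrial stress responses, LONP1 (0.999), a protease of the mitochondrial matrix, EIF3D (0.999), a subunit of translation initiation factor eIF3, SLC3A2 (0.999), and RSL1D1 (0.998), a nucleolar protein. SLC3A2 was thus the fourth nearest of all, and SLC7A1 ranked 9. SLC1A4 (0.983) ranked 169, SLC1A5 (0.981) ranked 203 and SLC7A11 (0.975) ranked 285, while SLC38A1 (0.964) ranked 457 and SLC38A2 (0.902) ranked 1241. SLC7A6 (-0.93) and SLC38A7 (-0.96) ran the other way.

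Most other amino acid transporters listed for the plasma membrane were too low to test. Of 11 further system L, cationic and heteromeric carriers, 5 were tested, 0 rose and 1 fell, beside 11.4% higher and 9.72% lower over all genes tested, with a median log2 fold change of 0.03, beside 0.0054 for all genes tested. SLC43A1 (also called LAT3), a facilitated carrier of leucine and other large neutral amino acids, fell and had 41.8 ± 6.07 CPM in knockout and 65.0 ± 11 CPM in wild type (SD, n = 3 each; log2 fold change -0.64, edgeR adjusted p = 0.0312). Of 24 further sodium-coupled or proton-coupled carriers 9 were tested, 1 rose and 1 fell, with a median of -0.02. The share called in these lists was near the 21.1% of all genes tested. SLC6A6, the taurine transporter, rose, with 135 ± 16.3 CPM in knockout and 84.2 ± 10.4 CPM in wild type (log2 fold change 0.68, edgeR adjusted p = 0.0135). SLC6A9, a glycine transporter, fell, with 11.5 ± 3.63 CPM in knockout and 26.8 ± 3.43 CPM in wild type (log2 fold change -1.22, edgeR adjusted p = 0.0145). Without wild type replicate 1 none of the 112 list genes tested passed in edgeR, against 27 in DESeq2, and without wild type replicate 3 only 3 did.

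Among transporters of the lysosome, where SLC38A7 also resides, 9 of 9 listed genes were tested, 4 rose and 0 fell, beside 11.4% higher and 9.72% lower over all genes tested, with a median log2 fold change of 0.38. SLC15A4, a carrier of histidine and peptides, had 27.4 ± 1.73 CPM in knockout and 19.3 ± 1.80 CPM in wild type (log2 fold change 0.50, edgeR adjusted p = 0.0163). CTNS, the cystine exporter cystinosin, had 24.4 ± 2.48 CPM in knockout and 17.1 ± 1.13 CPM in wild type (log2 fold change 0.51, edgeR adjusted p = 0.0190). SLC66A1 (also called PQLC2), an exporter of arginine and lysine, had 65.7 ± 8.55 CPM in knockout and 47.4 ± 4.96 CPM in wild type (log2 fold change 0.47, edgeR adjusted p = 0.0350). The other gene that rose was SLC15A3 (log2 fold change 0.53, edgeR adjusted p = 0.0372). Of 12 mitochondrial amino acid carriers 10 were tested, 3 rose and 1 fell, beside the same shares of 11.4% and 9.72%, with a median of 0.13; SLC25A29, a carrier of arginine and lysine (0.55, edgeR adjusted p = 0.0133), and SLC25A44, a carrier of branched-chain amino acids (0.44, edgeR adjusted p = 0.0144), were higher, and SLC25A15, the ornithine carrier (-0.76, edgeR adjusted p = 0.0204), was lower in knockout.

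Genes that sense amino acids for mTORC1 were all tested, and of 34 genes 2 rose and 5 fell, with a median log2 fold change of 0.09, a share called near the 21.1% of all genes tested. The genes that rose were SESN1, a relative of SESN2 (log2 fold change 0.95, edgeR adjusted p = 0.0377), and LAMTOR2, a subunit of the Ragulator complex (0.47, edgeR adjusted p = 0.0442). SESN2, a leucine sensor that is itself induced by stress, had 60.0, 41.6 and 54.9 CPM in knockout replicates 1, 2 and 3, and 151, 106 and 157 CPM in wild type replicates 1, 2 and 3 (log2 fold change -1.40, edgeR adjusted p = 0.00914). MLST8, a subunit of the mTOR complexes (-0.58, edgeR adjusted p = 0.0127), and SEH1L, a subunit of the GATOR2 complex (-0.27, edgeR adjusted p = 0.0165), were also lower. Of 18 regulators of the amino acid response 1 rose and 8 fell, beside 11.4% higher and 9.72% lower over all genes tested, with a median of -0.29. ATF5, the gene nearest to SLC7A5 above, had 22.8, 17.6 and 23.8 CPM in knockout and 177, 107 and 185 CPM in wild type (log2 fold change -2.87, edgeR adjusted p = 0.00731). TRIB3, a pseudokinase induced by the same response, had 28.9, 22.9 and 36.2 CPM in knockout and 222, 88.4 and 235 CPM in wild type (-2.63, edgeR adjusted p = 0.00997), and CEBPG, a C/EBP partner of ATF4, was lower by a smaller amount (-0.69, edgeR adjusted p = 0.0124). In SESN2, ATF5 and TRIB3, as in the transporters and on the first principal axis of all genes tested, wild type replicate 2 was the wild type library nearest to knockout.

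Of 26 plasma membrane solute carriers for other substrates 24 were tested, 4 rose and 2 fell, a share called near the 21.1% of all genes tested, with a median log2 fold change of 0.05. SLC16A3, a lactate exporter (0.59, edgeR adjusted p = 0.00977), SLC20A1, a phosphate importer (0.55, edgeR adjusted p = 0.0122), and SLC4A2, an anion exchanger (0.41, edgeR adjusted p = 0.0174), were higher in knockout. The pseudogene SLC7A5P1, a partial copy of SLC7A5 with which reads may be shared, had 2.73, 1.64 and 2.60 CPM in knockout and 3.78, 3.58 and 3.43 CPM in wild type (log2 fold change -0.63, edgeR adjusted p = 0.101). Its level was a small part of that of SLC7A5.

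**Figure D5:**
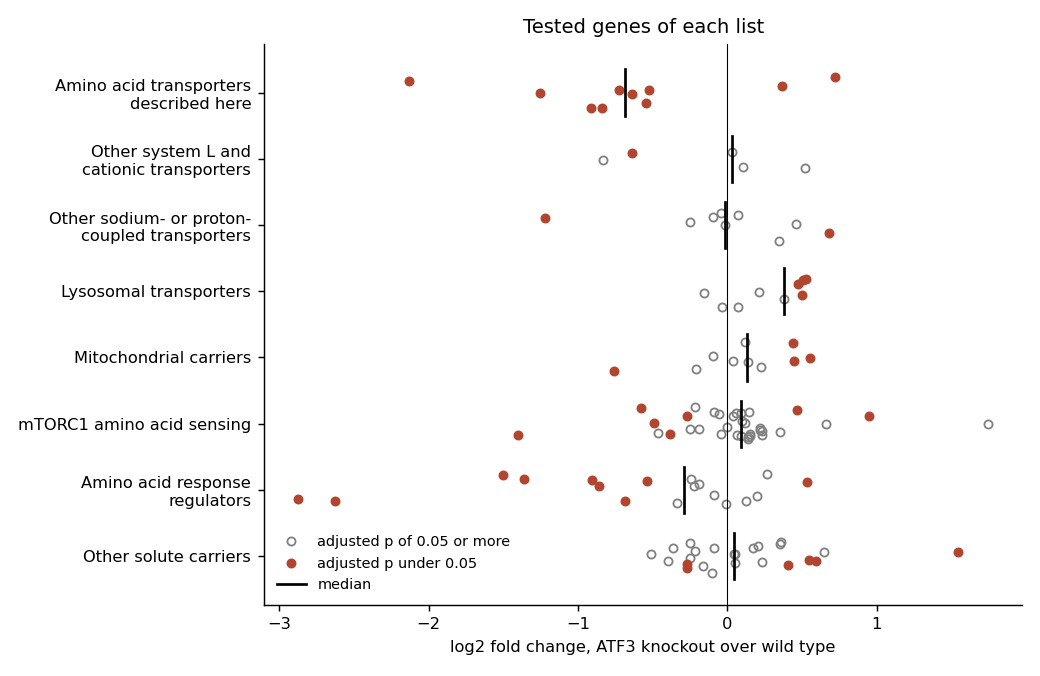
The log2 fold change, ATF3 knockout over wild type (horizontal axis), of each tested gene of the 10 transporters and of 7 other gene lists, filled where the edgeR adjusted p is under 0.05, with a vertical bar at the list median. The median is -0.68 for the 10 transporters, -0.29 for the response regulators and 0.38 for the lysosomal transporters, and within 0.13 of 0 for the other lists.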

How the data were processed

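Polyadenylated RNA of EoL-1 cells was sequenced with the Illumina Stranded mRNA Prep kit, per the labels. The authors deposited, per the file headers, a Salmon table for each library with an estimated count of reads, a TPM value, a length and an effective length for each of 177456 transcripts. The submitters' processing notes list FastQC 0.11.9, Salmon 1.6.0 and hg38; the sources used here give neither the transcriptome release nor the library type. The estimated counts deposited were not whole numbers for most transcripts, and Salmon can move reads between similar transcripts, so overlapping and duplicated genes are uncertain.

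Transcripts were joined to GENCODE 29 genes on GRCh38 by identifier, ignoring the version. The 10429 without a gene held 3.59 to 3.82% of reads and stayed out. Counts were summed over 35052 genes and rounded. The test was edgeR 4.0.16 (quasi-likelihood, TMM, minimum count of 10, R 4.3.3) on knockout against wild type, over 13131 genes, with 4 residual degrees of freedom and Benjamini-Hochberg adjustment at 0.05. CPM are TMM-scaled, fold changes are knockout over wild type, and deposited TPM values were summed per gene for levels and ratios. Exact permutation tests were two-sided over libraries. The alternatives were other scaling factors, no filter, limma-voom 3.58.1, DESeq2 1.42.0, an offset from the deposited effective lengths, a replicate block and leaving out each library. The pipeline was tested on simulated data.

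The members, lists and motifs were chosen with earlier results of these data known, and no test over a list is given. The genes named are the 10 members and ATF3, up to 3 called genes of each of 8 lists by p (the most abundant tested gene where none was called) and the 5 protein-coding genes most like SLC7A5. SLC15A3, SESN1, LAMTOR2, SLC7A5P1, SLC7A7 and the cell type markers named in the text lie outside that rule. All of these but the markers were named after their values were seen.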

Additional observations from a re-analysis of the deposited data

How the results depend on the processing

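All 10 transporters kept their direction and their call with relative log expression or upper-quartile factors, with no low-count filter, and with limma-voom, DESeq2 and an effective length offset. Over all genes 2770 were called (1494 higher and 1276 lower), and 1384 with the effective length offset (723 higher and 661 lower). Over the 8 lists 33 were called (15 higher and 18 lower), and 20 with that offset (6 higher and 14 lower). The share lost was similar in both directions over all genes, but in the lists more of the rises than of the falls were lost. Effective lengths of transcripts were the same in every library, so the offset varies only with the split between transcripts. The cause of the uneven loss in the lists was not tested.

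With the replicate block, edgeR called 2318 genes, all 10 transporters and 26 list genes. Deviations from the group means correlated at -0.092, 0.106 and 0.196 for replicate numbers 1, 2 and 3, and not every library correlated best with its own number, so the numbers were not taken as pairs.

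Leaving out each library in turn gave 0 to 2758 called genes, 0 to 10 called transporters and 0 to 34 called list genes, with fewer samples in each fit. Over the same fits, log2 TPM ratios whose groups overlapped changed sign: SLC1A4 over SLC1A5 ran between -0.0198 and 0.148 and SLC38A1 over SLC38A2 between -0.19 and 0.16. The difference in the share of the main transcript, in percentage points, ran between -0.034 and 0.052 for SLC7A11, -1.02 and 1.33 for SLC1A4, and -0.33 and 2.54 for SLC1A5. Among start ratios, the SLC3A2 starts at 62870814 (-0.67 to 0.0401), 62882775 (-0.0173 to 0.56) and 62884455 (-0.0611 to 0.52) and the SLC1A5 start at 46787342 (-0.0277 to 0.95) changed sign.

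With 3 libraries a group, permutation tests could not go below p = 0.1, and the knockout effect cannot be told apart from a difference between 2 cultures if replicates were not separate.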
